A study of Drosophila melanogaster with 24 samples.

Results

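The 88 nuclear genes described here encode subunits of the mitochondrial respiratory chain and of ATP synthase in Drosophila melanogaster, and the question was whether Stwl and BEAF sit at their ends in the ovary. Genes were taken by symbol: those beginning with ND- (complex I), Sdh (complex II), UQCR (complex III), COX (complex IV) or ATPsyn (complex V). The rule found 91 protein-coding genes, of which 3 (COX1, COX2 and COX3) lie on the mitochondrial genome, where no list holds an interval, and 88 lie among the 13911 protein-coding genes of the 6 chromosome arms. They fall into 63 general subunits, 20 paralogues with symbols ending in L, 4 more with symbols ending in L and a digit, and 1 assembly factor, Sdhaf3. ND-MNLL was kept with the general subunits because the last letter of its symbol stands for an amino acid.

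The respiratory chain passes electrons from NADH and succinate to oxygen and pumps protons across the inner mitochondrial membrane, and ATP synthase uses the proton gradient to make ATP. Most subunits are encoded in the nucleus and a few by mitochondrial DNA, so the complexes are built from both genomes. Drosophila carries duplicate copies of many nuclear genes for mitochondrial proteins, a number of them expressed mainly in testis. The expression of the L-symbol genes was not measured here.

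CUT&RUN, in which an antibody directs a nuclease to cleave the DNA around a bound protein, was used on ovaries. Of 24 samples, 3 are used here as lists of occupied intervals: Stwl in ovaries labelled bam GKD and undifferentiated, Stwl in ovaries labelled WT and differentiated, and BEAF in WT ovaries labelled differentiated. Stwl is described as a transcription factor and was detected with an antibody made by a laboratory. BEAF is an insulator-associated protein that binds chromatin boundaries, and its antibody came from a public hybridoma bank. The 2 genotypes differ in bam, a gene that germline cells need to leave the stem cell state, and no further allele or treatment is shared or named. The labels do not spell out GKD, but histone mark samples of the bam group in the same series are titled BamRNAi, which names RNA interference. The sources used here give no driver, number of pooled animals or age.

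The lists held 12857 intervals covering 21.5 Mb for Stwl in bam GKD, 8576 covering 11.7 Mb for Stwl in WT and 5083 covering 1.94 Mb for BEAF on these arms. Read depth is unknown. Each group is 1 list, so no difference has a replicate check and no test was made. The widest Stwl interval was 81541 bp in bam GKD and 72696 bp in WT, and in both lists it covered all 4 chorion genes looked for (Cp15, Cp16, Cp18 and Cp19). That cluster is known to be amplified in follicle cells of late egg chambers, a stage that the bam GKD label does not name. The part of such material in the values below was not tested, and no interval list measures how far bam itself was reduced. In whole ovaries, fewer cells with a bound site and weaker binding in each cell cannot be told apart.

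A gene was counted as occupied when an interval came within 500 bp of either annotated end, and "at an end" has that meaning throughout. A value in bp given for a gene is the width of the widest interval at an end, unless it is said to be a distance. Stwl lay at an end of 54 of 63 general subunit genes in bam GKD (85.7%) and of 56 in WT (88.9%), and BEAF lay at an end of 36 (57.1%). Of the 20 L-symbol paralogues, Stwl was at an end of 5 in bam GKD (25%) and of 4 in WT (20%), and BEAF was at an end of 3 (15%). Over all 88 genes the counts were 61 in bam GKD, 61 in WT and 40 for BEAF (69.3%, 69.3% and 45.5%). Among all protein-coding genes, Stwl was at an end of 61.4% in bam GKD and 55.7% in WT, and BEAF at an end of 28.1%. The general subunits were thus above the share of all genes in every list, and the L-symbol paralogues below it. With only the wider 50% of each list, Stwl was at 30 general subunits in bam GKD (47.6%, against 39.4% of all protein-coding genes) and 37 in WT (58.7%, against 37.1%), and at 3 L-symbol paralogues in each genotype (15%). Over all 88 genes that left 34 in bam GKD (38.6%) and 40 in WT (45.5%), so the bam GKD share of the whole set was no longer above that of all genes.

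**Figure D1:**
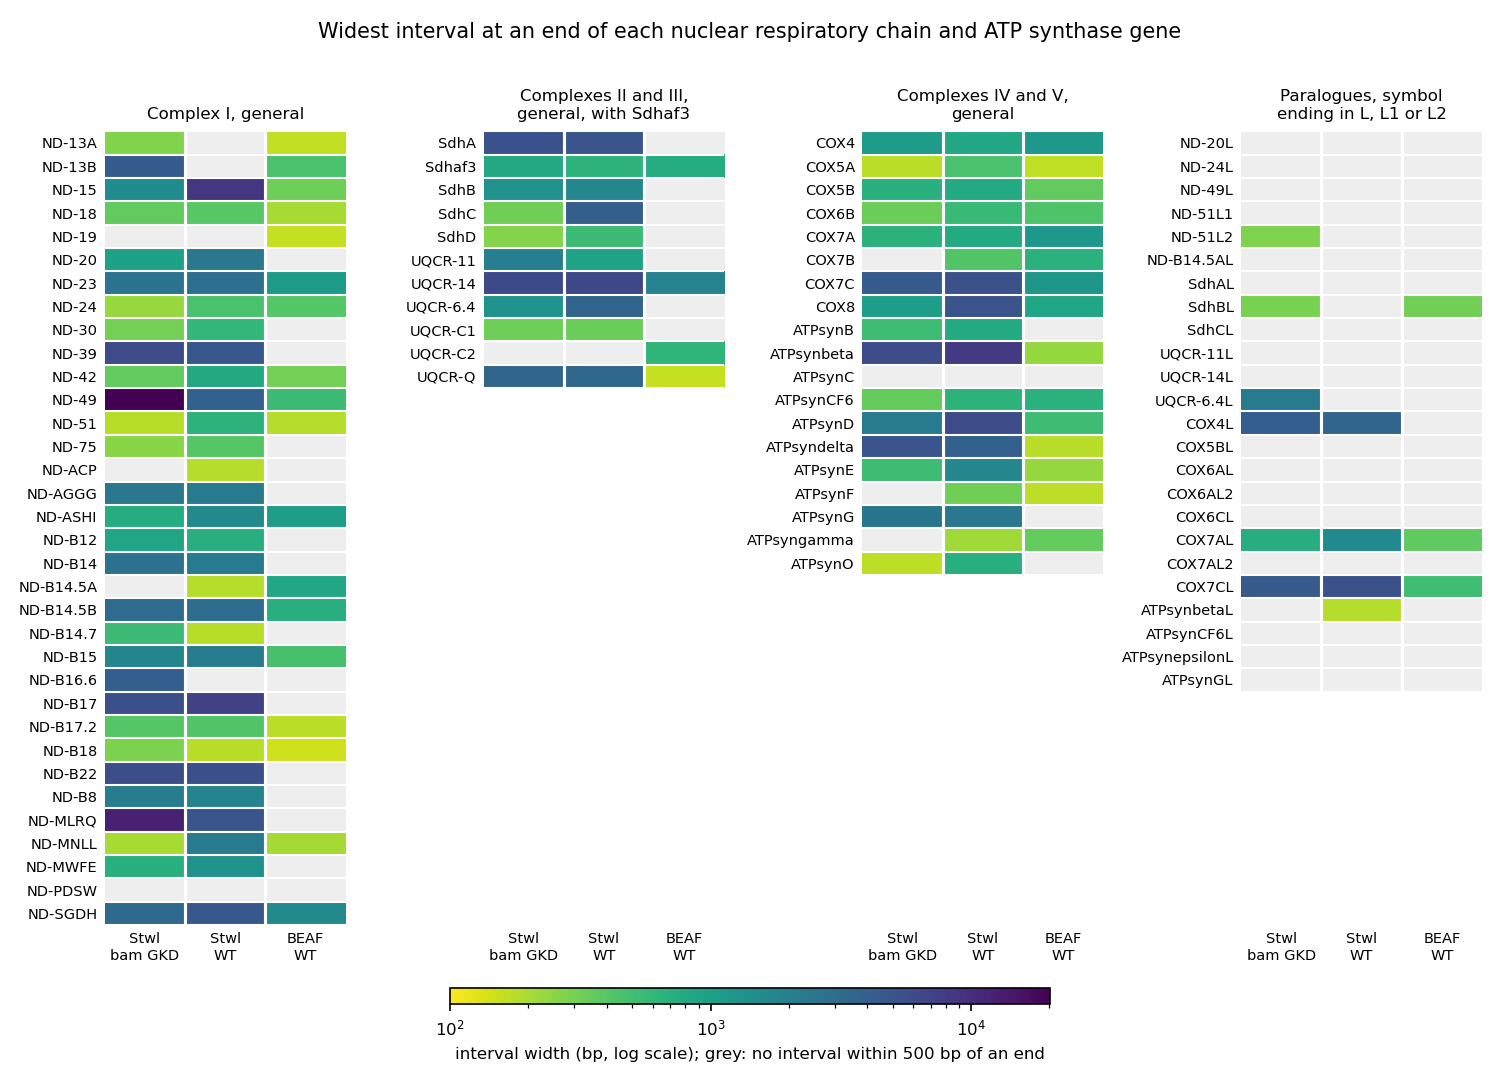
Width in bp (colour, log scale) of the widest interval within 500 bp of an end of each of the 88 genes (rows), in the lists for Stwl in bam GKD, Stwl in WT and BEAF in WT (columns); grey marks no interval. General subunits fill most of the Stwl columns, whereas 14 of the 20 L-symbol paralogues are grey in all 3 lists.

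Most of these genes were called alike in the 2 Stwl lists. Stwl was at an end in both genotypes for 55 of the 88 genes (62.5%, against 49.5% of all protein-coding genes), in bam GKD only for 6 (6.82%, against 11.8%), in WT only for 6 (6.82%, against 6.19%) and in neither for 21 (23.9%, against 32.4%). Of those 21, 14 were L-symbol paralogues and 4 were general subunits. BEAF and Stwl together were at an end of 35 genes in WT (39.8%, against 26.4%), and BEAF without Stwl at 5 (5.68%, against 1.71%). All 3 lists reached 31 genes (35.2%, against 24.3%) and none of them reached 19 (21.6%, against 31.3%). Only 2 of those 19 were general subunits.

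Longer genes more often had an interval at an end: Stwl in WT was at 33.9% of all protein-coding genes of up to 1000 bp and at 66.1% of those over 2000 bp. The general subunit genes were short, with a median length of 1178 bp, the L-symbol genes shorter at 696.5 bp, and protein-coding genes as a whole had a median of 2161 bp. Among genes of up to 1000 bp, Stwl was at an end of 18 of 21 general subunits in bam GKD and of 20 in WT, and BEAF at an end of 14 (85.7%, 95.2% and 66.7%). The 15 L-symbol paralogues of this length had 4, 3 and 2 in the same order of lists (26.7%, 20% and 13.3%). All protein-coding genes of this length stood at 46.9% in bam GKD, 33.9% in WT and 14.6% for BEAF. The share of general subunits thus lay further above that of all genes in the short class than over all lengths.

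**Figure D2:**
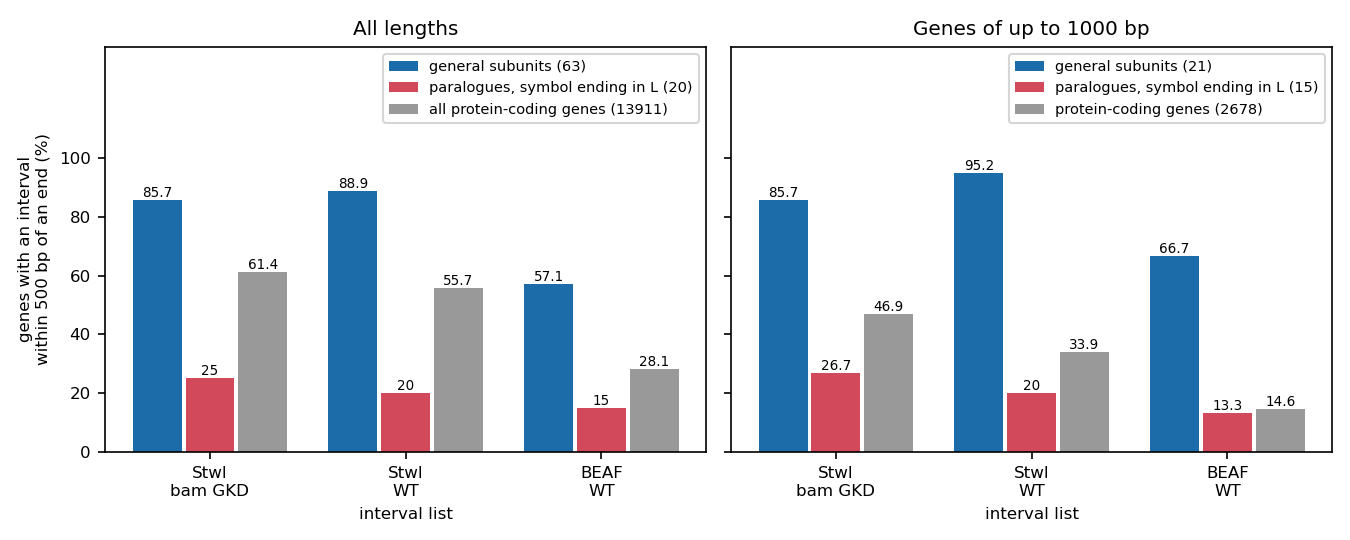
Percent of genes with an interval within 500 bp of an end (vertical axis, from 0) in each of the 3 interval lists, for general subunits, L-symbol paralogues and all protein-coding genes, over all lengths (left) and for genes of up to 1000 bp (right). In the short class, Stwl in WT was at 95.2% of general subunits, 20% of L-symbol paralogues and 33.9% of all genes.

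Most of these genes have close neighbours, and intervals are shared. Another protein-coding gene lay within 500 bp of 58 general subunit genes (92.1%) and of 13 L-symbol genes (65%), against 80.4% of all protein-coding genes. The widest Stwl interval at a gene of the 88 reached the end of no other protein-coding gene in 4 cases in bam GKD and 3 in WT, and the same held for 1 BEAF interval. No such share was taken over all protein-coding genes, so such sharing cannot be called particular to the 88. A stricter count took only genes with an interval whose centre was nearest to one of their own ends. It gave 25 general subunits in bam GKD (39.7%), 36 in WT (57.1%) and 30 for BEAF (47.6%). Among the L-symbol paralogues it gave 2, 1 and 2 (10%, 5% and 10%). Over all 88 genes it gave 29, 38 and 33 (33%, 43.2% and 37.5%), where all protein-coding genes had 38.4%, 33.6% and 19.8%. By this count the 88 genes were below the share of all genes for Stwl in bam GKD and above it in WT and for BEAF, and the general subunits were close to it in bam GKD.

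The subunits of complex I, the entry point for electrons from NADH, gave 30 of 34 general genes with Stwl in bam GKD, 29 in WT and 18 with BEAF. These were 88.2%, 85.3% and 52.9%, against 61.4%, 55.7% and 28.1% of all protein-coding genes. The 7 core subunits (ND-75, ND-51, ND-24, ND-49, ND-30, ND-23 and ND-20), which carry the flavin, the iron-sulphur clusters and the quinone site, all had Stwl in both genotypes. BEAF was at 4 of these 7, and ND-75, ND-30 and ND-20 lacked it. A Stwl interval was centred nearest to the gene's own end at 3 of the 7 in bam GKD and at 7 in WT, and a BEAF interval at 4. The 27 accessory subunits had Stwl at 23 in bam GKD and 22 in WT, and BEAF at 14.

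ND-49 had the widest Stwl interval of all 88 genes in bam GKD, at 20056 bp, against 3887 bp in WT, with a BEAF interval of 533 bp. In WT another Stwl interval, of 3821 bp, lay at the other end of ND-49, whereas the bam GKD interval covered the whole gene. This gene lies on the small chromosome 4 (chr4:568296-571554), where Stwl was at an end of 100% of the 80 protein-coding genes in both genotypes. ND-MLRQ, on chr3L:23339326-23345936, followed with 12266 bp in bam GKD and 4944 bp in WT, and had no BEAF within 15169 bp of an end. The widest of complex I in WT were those at ND-15 (1547 bp in bam GKD and 8711 bp in WT) and ND-B17 (5490 bp in bam GKD and 7013 bp in WT). ND-15 is annotated over 41305 bp, the longest span of the 88. The Stwl interval at its end reached 3 protein-coding genes in bam GKD and 4 in WT, ND-15 among them. Further Stwl intervals lay inside ND-15 away from its ends in both genotypes, and some reached ends of other genes such as Gs1 and CG3164. ND-SGDH and ND-23 had the widest BEAF intervals of the complex, of 1631 bp and 1108 bp. Each of them also lay under Stwl intervals that covered the whole gene, of 3272 bp in bam GKD and 4770 bp in WT for ND-SGDH and of 2641 bp and 2924 bp for ND-23.

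ND-75 (chrX:8248651-8251687), the largest subunit of complex I, had Stwl in both genotypes but at opposite ends. The interval of 255 bp in bam GKD lay 89 bp outside one end of the gene and also reached the end of Trxr1. The interval of 405 bp in WT lay across the other end, chrX:8251479-8251883. At the other 54 genes with Stwl in both genotypes, an interval of the bam GKD list overlapped one of the WT list, as at 97.9% of all protein-coding genes with Stwl in both.

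Stwl was at an end in bam GKD only for 3 of the 34 general genes of complex I (8.82%) and in WT only for 2 (5.88%), against 11.8% and 6.19% of all protein-coding genes. ND-13A, ND-13B and ND-B16.6, all accessory subunits, had Stwl in bam GKD and not in WT. BEAF was at ND-13A (162 bp) and ND-13B (462 bp) in WT, so both had BEAF without Stwl there, and it was not at ND-B16.6. At ND-13A (chr2L:5099177-5100288) the interval was 272 bp, and the nearest WT interval was 1820 bp from an end. At ND-13B (chr3L:10693184-10694108) a 4282 bp interval lay 338 bp from the gene in bam GKD, and the nearest one in WT was 746 bp off. ND-B16.6 (chrX:6349016-6350401) had a 285 bp interval inside the gene and a 4148 bp one 35 bp beyond it in bam GKD, while the nearest in WT was 600 bp away. The wide interval reached kdn, the citrate synthase gene next door, which had Stwl in both genotypes. With a window of 1000 bp, ND-13B and ND-B16.6 would have counted as occupied in WT also.

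ND-ACP, the acyl carrier protein of the complex, and ND-B14.5A had Stwl in WT only. Their WT intervals were narrow, at 179 bp and 182 bp, with edges 45 bp and 57 bp from an end of the gene. The nearest bam GKD interval was 10573 bp from ND-ACP and 1918 bp from ND-B14.5A, which also had a BEAF interval of 828 bp. ND-19 had BEAF (159 bp) without Stwl in either genotype, its nearest Stwl interval being 9331 bp away in bam GKD and 3950 bp in WT. ND-PDSW had none of the 3, with distances of 8873 bp in bam GKD, 8625 bp in WT and 2314 bp for BEAF.

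Complex II, succinate dehydrogenase, links the citric acid cycle to the chain. All 4 general subunits (SdhA, the flavoprotein, SdhB, the iron-sulphur subunit, and the membrane anchors SdhC and SdhD) had Stwl in both genotypes and none had BEAF. Of all protein-coding genes, 49.5% had Stwl in both genotypes and 28.1% had BEAF, and 4 genes are few for such a comparison. At SdhA, on chr2R:19391863-19395971, the widest interval was 5287 bp in bam GKD and 5010 bp in WT. SdhB had an interval of 177 bp beyond one end and of 1368 bp beyond the other in bam GKD, and of 1717 bp in WT, none of them overlapping the gene. SdhC differed most in width, with 316 bp in bam GKD against 4054 bp in WT, where the interval covered the gene. SdhD had 267 bp in bam GKD and 528 bp in WT. The nearest BEAF interval was 657 bp from SdhB and between 6477 and 21572 bp from the other 3. Sdhaf3, which helps to mature the iron-sulphur subunit, had all 3, with widths of 816 bp in bam GKD, 650 bp in WT and 746 bp for BEAF.

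Complex III passes electrons from quinone to cytochrome c. Stwl was at 5 of its 6 general subunits in each genotype (83.3%) and BEAF at 3 (50%). All protein-coding genes had Stwl at 61.4% in bam GKD and 55.7% in WT, and BEAF at 28.1%. UQCR-14 (chrX:16286288-16286988), wholly inside another gene, was covered by intervals of 6099 bp in bam GKD and 6426 bp in WT, and its BEAF interval of 1919 bp was the widest of the 88 genes. UQCR-Q had 3551 bp in bam GKD and 3413 bp in WT, again covering the gene, with a BEAF interval of 161 bp. UQCR-6.4 had 1316 bp in bam GKD and 3637 bp in WT. UQCR-11 had 2047 bp in bam GKD and 920 bp in WT. The 2 core proteins differed: UQCR-C1 had Stwl intervals of 321 bp in bam GKD and 327 bp in WT and no BEAF, whereas UQCR-C2 had a BEAF interval of 631 bp and no Stwl. The Stwl intervals nearest to UQCR-C2 were 1005 bp off in bam GKD and 985 bp in WT.

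Complex IV, cytochrome c oxidase, reduces oxygen. Among all protein-coding genes, BEAF reached 28.1%, Stwl 55.7% (WT) or 61.4% (bam GKD), and the 3 lists together 24.3%. A set of 8 genes is small for comparison with these shares. BEAF was at an end of all 8 general subunits, Stwl at all 8 in WT and at 7 in bam GKD, so 7 of 8 had all 3 lists. The exception was COX7B (chr3L:17425477-17426282), with a Stwl interval of 425 bp and a BEAF interval of 682 bp in WT and the nearest bam GKD interval 3524 bp away. COX7C had the widest Stwl interval of the complex in both genotypes, 4371 bp in bam GKD and 5442 bp in WT, and the widest BEAF interval, 1217 bp. COX8 had 1060 bp in bam GKD, 5184 bp in WT and 886 bp for BEAF. COX4, an early-assembling nuclear subunit, had 1099 bp in bam GKD, 829 bp in WT and 1199 bp for BEAF. COX5A had 172 bp in bam GKD, 455 bp in WT and 167 bp for BEAF, the narrowest of the complex in bam GKD and for BEAF.

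Complex V, ATP synthase, has a catalytic F1 head joined by a rotor and a peripheral stalk to a ring in the membrane. Of 11 general subunits, 8 had Stwl in bam GKD (72.7%), 10 in WT (90.9%) and 7 BEAF (63.6%), against 61.4%, 55.7% and 28.1% of all protein-coding genes. ATPsynbeta, the catalytic subunit, had the widest Stwl intervals in both genotypes, at 5905 bp in bam GKD and 8153 bp in WT, and like ND-49 it lies on chromosome 4 (chr4:1031484-1034917). ATPsyndelta followed in bam GKD with 4971 bp, against 3858 bp in WT. ATPsynD of the stalk followed in WT, with 2255 bp in bam GKD and 5805 bp in WT. ATPsynCF6 and ATPsynD had the widest BEAF intervals, at 685 bp and 518 bp.

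ATPsyngamma, the central shaft of the rotor, and ATPsynF had Stwl in WT only. At ATPsyngamma (chr3R:29747704-29749163) the WT interval was 214 bp and the BEAF interval 352 bp, and the nearest interval in bam GKD was 85994 bp away, the largest such distance of the 88 genes in that list. ATPsynF had 313 bp in WT, 170 bp for BEAF and no bam GKD interval within 7004 bp. ATPsynC, which encodes the ring subunit, was the one general gene of the complex with none of the 3 lists, its nearest interval being 8510 bp away in bam GKD, 4400 bp in WT and 33035 bp for BEAF.

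Where Stwl was at an end in both genotypes, its widest interval was wider in bam GKD for 19 genes and wider in WT for 36. The median ratio of bam GKD width to WT width was 0.803 for these 55 genes and 0.999 for all protein-coding genes with Stwl in both. The share wider in bam GKD was 34.5%, against 49.8%. In medians, the widest interval at an end was 1060 bp in bam GKD and 1624 bp in WT for the 61 genes occupied in each, whereas over all occupied protein-coding genes it was 1390 bp in bam GKD and 1211.5 bp in WT. BEAF intervals were narrower, with a median of 417 bp at these genes and 392 bp at all.

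**Figure D3:**
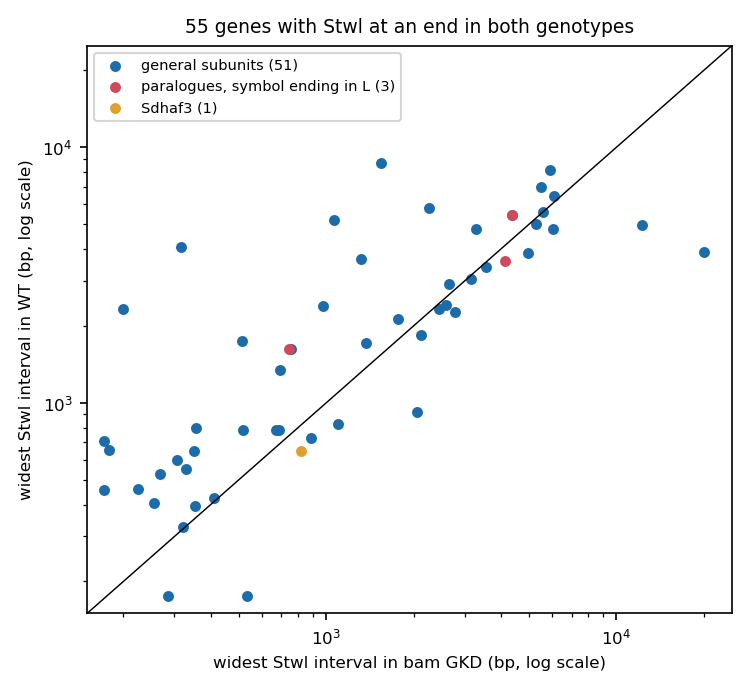
Width of the widest Stwl interval at an end in bam GKD (horizontal axis, bp, log scale) against that in WT (vertical axis, bp, log scale), 1 point for each of the 55 genes with Stwl in both genotypes; the line marks equal widths. Of the points, 36 lie above the line (wider in WT) and 19 below it.

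The position of the intervals differed in the same way. In bam GKD, 20 of the 61 occupied genes had Stwl beside the gene with no interval overlapping the gene itself (32.8%), and in WT 6 of 61 (9.84%). Over all occupied protein-coding genes these shares were 25.6% in bam GKD and 22.1% in WT. COX5B, ND-30, ND-42, ATPsynB, ATPsynO and ATPsynCF6 were such genes, with bam GKD intervals 7 to 101 bp outside the gene and WT intervals overlapping it. At ATPsynO, which encodes the stalk protein that meets the F1 head, the interval was 171 bp in bam GKD and 706 bp in WT. At ND-30 it was 305 bp in bam GKD and 600 bp in WT. Counting only intervals that overlap the gene, Stwl was at 36 general subunits in bam GKD (57.1%) and 52 in WT (82.5%), and at 3 L-symbol paralogues in bam GKD (15%) and 2 in WT (10%). All protein-coding genes had 48.2% in bam GKD and 45.6% in WT. Over all 88 genes it was at 42 in bam GKD (47.7%) and 55 in WT (62.5%).

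At all 35 genes with Stwl and BEAF at an end in WT, a BEAF interval overlapped a Stwl interval, as at 95.8% of all protein-coding genes with both. BEAF had more than 1 interval at the ends of 16 genes, whereas Stwl had more than 1 at 10 in bam GKD and at 6 in WT. The Stwl lists hold no 2 intervals closer than 1001 bp, so neighbouring sites appear there as 1 interval, whereas BEAF intervals lie as close as 76 bp. No BEAF interval covered a whole gene of the 88, whereas the widest Stwl interval did so at 16 in bam GKD and 17 in WT. Neither the share of genes covered in this way nor the share with more than 1 interval was taken over all protein-coding genes.

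Of the 20 L-symbol paralogues, 14 had none of the 3 lists at an end (70%, against 31.3% of all protein-coding genes). All 4 of complex I (ND-20L, ND-24L, ND-49L and ND-B14.5AL) were among them, as were SdhAL and SdhCL, UQCR-11L and UQCR-14L, COX5BL, COX6AL and COX6CL, and ATPsynCF6L, ATPsynGL and ATPsynepsilonL. Among genes of up to 1000 bp the difference was smaller: 73.3% of L-symbol paralogues and 48.4% of all protein-coding genes had none of the 3 lists. The nearest Stwl interval was a median of 3670 bp from the 15 unoccupied paralogues in bam GKD and 13207.5 bp from the 16 in WT, and the nearest BEAF interval 17291 bp from 17. For the unoccupied general subunits these medians were 8510 bp from 9 in bam GKD, 1820 bp from 7 in WT and 5599 bp from 27 for BEAF, so the paralogues lay nearer to Stwl in bam GKD and farther in WT.

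In 20 pairs, both the paralogue and its general partner belong to the 88 genes, and 3 of these pairs have a paralogue with a digit after the L. In bam GKD, Stwl was at both genes in 6 pairs, at the partner alone in 13, at neither in 1 (ND-B14.5AL and ND-B14.5A) and at the paralogue alone in 0. In WT it was at both in 4 and at the partner alone in 16. BEAF was at both in 2, at the partner alone in 11, at the paralogue alone in 1 and at neither in 6. The paralogue was farther than its partner from the nearest interval in 15 of 20 pairs for Stwl in bam GKD, 18 for Stwl in WT and 17 for BEAF. ND-51, ND-20 and SdhA illustrate the partner side. ND-51 had Stwl intervals of 178 bp in bam GKD and 654 bp in WT and a BEAF interval of 181 bp, whereas ND-51L1 had no interval within 1564 bp. ND-20 had 976 bp in bam GKD and 2390 bp in WT, and ND-20L had no interval within 8311 bp. SdhA had Stwl at both ends in bam GKD and at one end in WT, and SdhAL had none nearer than 2444 bp in bam GKD and 57737 bp in WT.

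**Figure D4:**
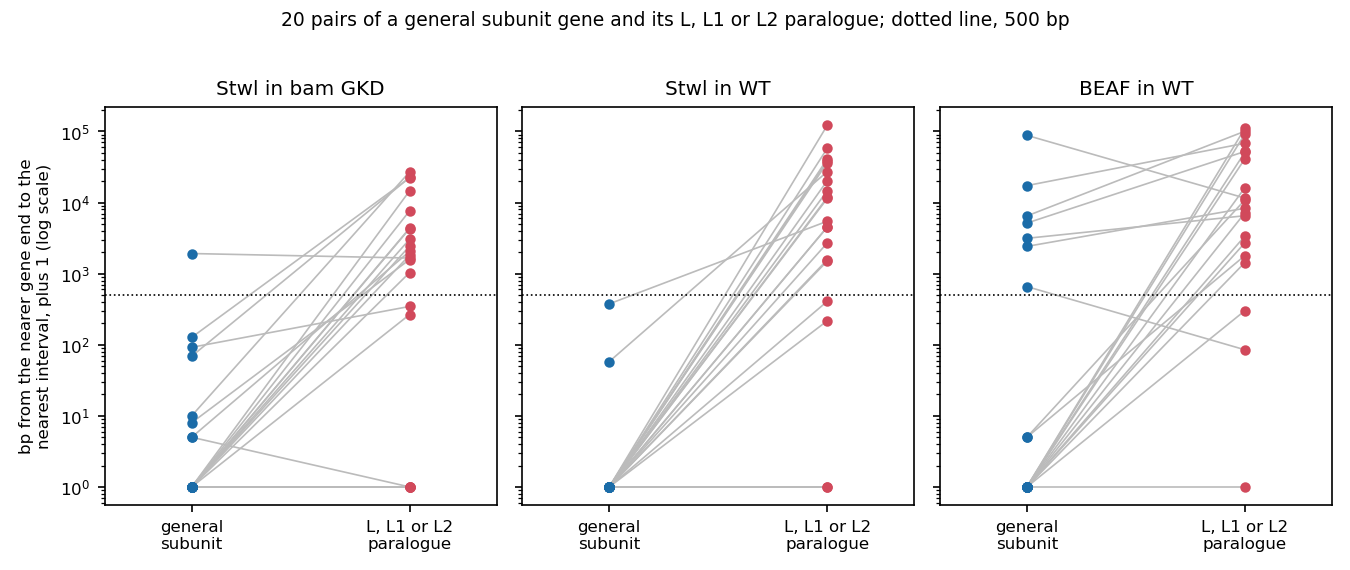
Distance in bp from the nearer gene end to the nearest interval, plus 1 (vertical axis, log scale), for the general subunit and its paralogue in each of 20 pairs (grey lines), in the 3 interval lists; ND-51 and COX7A each stand in 2 pairs. The dotted line marks 500 bp. In WT, 18 of the 20 partners have a Stwl interval on an end itself, and 2 of the 20 paralogues do.

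The 14 unoccupied paralogues varied in how far the intervals lay, here given as the distance from the nearer gene end. In complex I it was 22286 bp in bam GKD, 11801 bp in WT and 8311 bp for BEAF at ND-20L. ND-24L stood 14639 bp off in bam GKD, 14614 bp in WT and 2709 bp for BEAF, and its partner ND-24 had intervals of 225 bp, 458 bp and 403 bp at an end in the same lists. ND-49L stood 7655 bp off in bam GKD, 40865 bp in WT and 92073 bp for BEAF. ND-B14.5AL, at 1656 bp in bam GKD, 27263 bp in WT and 110314 bp for BEAF, was the gene of the 88 farthest from BEAF. None of the 4 had an interval within 1000 bp of an end in any list.

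In complex II, SdhAL stood 68215 bp from BEAF, and SdhCL 27024 bp from Stwl in bam GKD, 38212 bp in WT and 100620 bp from BEAF. In complex III the distances were 4305 bp in bam GKD, 4515 bp in WT and 11563 bp for BEAF at UQCR-11L, and 4368 bp, 36402 bp and 41137 bp at UQCR-14L. In complex V, ATPsynCF6L stood 22518 bp off in bam GKD, 121763 bp in WT and 50729 bp for BEAF, whereas its partner ATPsynCF6 had 349 bp, 650 bp and 685 bp intervals at an end. ATPsynGL was 1035 bp from Stwl in bam GKD, 20251 bp in WT and 52297 bp from BEAF, and its partner ATPsynG was covered by Stwl intervals of 2580 bp in bam GKD and 2418 bp in WT.

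For 3 of the unoccupied paralogues the general counterpart lies outside the symbol rule. COX6AL stood 3544 bp from Stwl in bam GKD, 3987 bp in WT and 9349 bp from BEAF, and levy, the general gene, had no Stwl in bam GKD, 932 bp in WT and 969 bp for BEAF. COX6CL stood 3670 bp, 6164 bp and 17291 bp off in the same lists, and cype had 5298 bp in bam GKD, 2680 bp in WT and 1284 bp for BEAF. ATPsynepsilonL stood 1250 bp, 3104 bp and 21141 bp off, and sun had 7774 bp in bam GKD, 8257 bp in WT and 872 bp for BEAF. The general gene was thus occupied by Stwl in WT and by BEAF in each of the 3.

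The L-symbol genes that were occupied mostly shared their intervals with neighbours. COX7CL lies 282 bp from its partner COX7C on 2R (chr2R:10050348-10050874 and chr2R:10048353-10050066), and the same 4371 bp interval in bam GKD, 5442 bp in WT and 513 bp for BEAF served both. In none of the 3 was the centre nearest to COX7CL. COX4L (chr2R:5353994-5354723) was reached by 4143 bp in bam GKD and 3590 bp in WT, both centred nearest to an end of IFT20, and in WT the interval stopped 407 bp short of the gene. Its partner COX4 lies on 2L. ATPsynbetaL had a 182 bp interval in WT only, 216 bp away and centred nearest to IleRS-m, and none in bam GKD within 1825 bp.

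COX7AL (chr3R:8343669-8344310), 2626 bp from its partner COX7A, was the one L-symbol gene with Stwl centred nearest to its own end in both genotypes and with BEAF. Its Stwl interval covered the gene, with a width of 745 bp in bam GKD and 1623 bp in WT, and the widest of its 3 BEAF intervals was 367 bp. COX7A had 671 bp in bam GKD, 781 bp in WT and 1177 bp for BEAF. SdhBL had Stwl in bam GKD only (293 bp, lying 345 bp from the gene and centred nearest to Flacc) and BEAF in WT (308 bp). It was the pair in which the paralogue had BEAF and the partner, SdhB, did not.

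UQCR-6.4L (chr3L:16566750-16567300) stood apart. A Stwl interval of 2254 bp in bam GKD covered the whole gene and reached the end of no other protein-coding gene, and in WT the nearest one was 2697 bp away. Its partner UQCR-6.4 had Stwl in both genotypes and no BEAF within 3139 bp. ND-51L2, one of the 4 with a digit, also had Stwl in bam GKD only, in a 276 bp interval on an end of the gene, with the nearest WT interval 4515 bp off. COX6AL2 had a bam GKD interval of 1349 bp inside its long gene and none at an end, and ND-51L1 and COX7AL2 had none, the nearest being 3054 bp in bam GKD, 11407 bp in WT and 16150 bp for BEAF from COX7AL2. Paralogues were 3 of the 6 genes that had Stwl in bam GKD alone, and ATPsynbetaL was the one paralogue of the 6 that had it in WT alone. Of the 24 paralogues with or without a digit, 12.5% had Stwl in bam GKD alone and 4.17% in WT alone. These shares were close to the 11.8% and 6.19% of all protein-coding genes.

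COX5BL shows how near an unoccupied paralogue can lie to an occupied partner. It is 123 bp from COX5B on 2L (chr2L:6559431-6560133), whose intervals were 690 bp in bam GKD, 783 bp in WT and 355 bp for BEAF. All of them lay at the far end of COX5B. The nearest interval of any kind was 1580 bp from COX5BL in bam GKD, 1501 bp in WT and 1431 bp for BEAF.

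The paralogues also differed in their surroundings. Of the 20, 8 lie wholly inside another protein-coding gene (40%), against 2 of the 63 general subunits (3.17%) and 13.3% of all protein-coding genes. Of these 8, only UQCR-6.4L had an interval at an end. The other 12 had Stwl at 4 in bam GKD (33.3%), 4 in WT (33.3%) and BEAF at 3 (25%). Among all nested protein-coding genes of up to 1000 bp the shares were 40.5% in bam GKD, 20.4% in WT and 7.57% for BEAF, and among those of this length that are not nested 48.5%, 37.4% and 16.4%. The 20 paralogues are not limited to that length, so the 2 sides differ in length class. Nested SdhAL spans 2148 bp, and SdhBL, which is not nested, 2136 bp.

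By chromosome, the 13 members on X had Stwl at 12 in bam GKD (92.3%) and 11 in WT (84.6%), and BEAF at 10 (76.9%). All protein-coding genes of X had 67.7%, 61.6% and 42.7%. On 3L, which holds 20 of the genes, Stwl was at 11 in bam GKD (55%) and 12 in WT (60%), and BEAF at 6 (30%), against 64.5%, 56.1% and 25%. All but 1 of the 13 on X are general subunits.

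Genes of the same pathway outside the symbol rule were taken from 4 lists of known genes, 37 in all, of which 35 were matched to the annotation. Stwl was at an end of 25 in bam GKD and 29 in WT, and BEAF at 17, with 4 having Stwl in WT alone and 0 in bam GKD alone. Over all protein-coding genes the shares were 61.4%, 55.7% and 28.1%, with 6.19% in WT alone and 11.8% in bam GKD alone. The same shares stand beside the counts for each of the 4 lists, all of them small. Of 10 other subunits and carriers, 6 had Stwl in bam GKD, 8 in WT and 5 BEAF. Those with Stwl in WT alone were levy, a complex IV subunit, and blw, the alpha subunit of the F1 head (1025 bp), whose nearest bam GKD interval was 51402 bp away. Like ATPsynC and UQCR-C2, RFeSP, the iron-sulphur protein of complex III, had no Stwl, and neither did Cyt-c1L, the paralogue of Cyt-c1. Cyt-c1 itself had 1296 bp in bam GKD and 1330 bp in WT. The cytochrome c genes Cyt-c-p and Cyt-c-d both had Stwl in both genotypes and BEAF. Intervals at Cyt-c-d were 5130 bp in bam GKD, 5574 bp in WT and 159 bp for BEAF, so not every duplicate gene was unoccupied. Cyt-c-d ends at chr2L:16719635 and Cyt-c-p starts at chr2L:16719932. The 159 bp BEAF interval lay 104 bp from Cyt-c-d and 35 bp from Cyt-c-p, so it was counted for both. The widest Stwl intervals at Cyt-c-p were others, of 4234 bp in bam GKD and 4174 bp in WT.

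All 11 genes of the citric acid cycle had Stwl in both genotypes (against 49.5% of all protein-coding genes) and 7 had BEAF (against 28.1%). Fum1, a fumarase gene, overlaps ND-ASHI, and the same intervals of 755 bp in bam GKD, 1624 bp in WT and 1052 bp for BEAF served both. Of 7 assembly factors, Stwl was at 5 in each genotype and BEAF at 3, and Cox11 and CIA30 had no Stwl. Of 7 regulators of mitochondrial genes, Stwl was at 3 in bam GKD (ewg, srl and mtTFB1) and 5 in WT, and BEAF at 2. TFAM, which packages mitochondrial DNA, and Ets97D had it in WT only, in intervals of 2474 bp and 183 bp, and PolrMT, the mitochondrial RNA polymerase, in neither.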

How the data were processed

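Each list deposited by the authors gives only the chromosome, start and end of intervals on dm6, so no score, fold or read count was used and depth is unknown. MACS2 2.1.0, Bowtie2 2.2.8, deepTools 3.2.1, SAMtools 1.9, FastQC 0.11.8 and Trim Galore 0.6.6 are named, with no role, per the submitters' processing notes. The sources used here do not give their settings, the threshold or whether duplicates were pooled. The other 21 samples were not analysed here. Gene ends came from RefSeq's table of the same assembly, which gives no strand, exons or sequence. Intervals overlapping by at least 1 bp the 500 bp to each side of either gene end were counted with Python 3.11.15 and pandas 2.3.3, in code checked on simulated data. Width stood in for strength. Coordinates are 1-based. Members, gene lists and counts were chosen with earlier results of these data known. Named in full were L-symbol paralogues and their partners, genes with Stwl in 1 genotype or BEAF without Stwl, and the 2 widest per complex and list; other genes are examples chosen after their values were seen. Cox15 and Ecsit were not matched, and Nc73EF was matched by a synonym to Ogdh.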

Additional observations from a re-analysis of the deposited data

How the results depend on the processing

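Of 46 values recomputed under other settings, 34 kept to within 1.5 times the value reported and 12 did not. With a window of 250 bp, the L-symbol paralogues with Stwl in bam GKD were 3. Counting only intervals that overlap the gene gave 18 genes with Stwl in WT only (20.5%, against 8.64% of all protein-coding genes). It gave 3 L-symbol paralogues in bam GKD and 2 in WT. Keeping the wider 50% of each list gave 34 genes with Stwl in bam GKD (38.6%, against 39.4% of all protein-coding genes) and 40 in WT (45.5%, against 37.1%). Of the genes, 10 had it in WT only (11.4%, against 8.69%), and 3 L-symbol paralogues had it in bam GKD. Keeping equal numbers of the widest intervals gave 29 genes in bam GKD (33%, against 33.5%) and 53.4% in WT (against 42.3%). There were 3 in bam GKD only (3.41%, against 7.52%), 21 in WT only (23.9%, against 16.3%) and 3 L-symbol paralogues in bam GKD. The share of all genes with Stwl in WT only thus rose under these settings also. Under these last 3 settings the bam GKD share of the 88 genes was no higher than that of all genes (47.7%, against 48.2%, for intervals overlapping the gene), whereas that of the general subunits was higher in each: 57.1% for overlapping intervals, 47.6% for the wider 50% and 41.3% for equal numbers. Placing ND-MNLL with the paralogues, a setting added after the data were seen, gave 6 in bam GKD, 5 in WT and 4 for BEAF. No paired analysis was possible because each group is 1 list. The planned count at start sites only and the motif counts were not run, since strand and sequence were not used here. Depth is unknown, so a gene without an interval may be occupied below what a library could show.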
